A study of Mus musculus with 4 samples.

Results

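The Notch pathway and the proneural genes were described in 4 sorted mouse cell populations, each measured on 1 array with no replicate. The 35 genes were picked by name from the pathway, from the basic helix-loop-helix factors that it controls and from other neurogenic genes. Each of the 35 had a probe set (a transcript cluster) paired with it alone, among 19938 such genes on the array. They comprised 4 receptors, 5 ligands, 7 Hes and Hey genes, 11 regulators of the pathway, and 8 proneural and neurogenic genes.

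The first pair of populations came from mouse ESCs of a 129SVEV line that carried GFP knocked in at the Lmx1a locus. These cells were differentiated as floating aggregates by the SFEBq method, with SHH and FGF8b and later ascorbic acid and BDNF. On day 9 they were sorted by GFP and by an antibody to CORIN, a surface protease of the floor plate. The positive fraction is labelled CORIN+LMX1A::GFP+ and the negative one CORIN-LMX1A::GFP+, so that both carried the knock-in and were GFP+, and they are called cultured CORIN+ and cultured CORIN- cells here. The second pair was sorted with the antibody alone from the ventral midbrain (VM) of C57BL/6N fetuses at E11.5 into CORIN+ and CORIN- cells, with no selection for LMX1A. The sources used here do not say how many fetuses were pooled or whether the knock-in line was 1 clone. The log2 signal of Corin, whose product was sorted, was 13.10 in cultured CORIN+ cells, 11.13 in cultured CORIN- cells, 11.43 in VM CORIN+ cells and 7.28 in VM CORIN- cells. It was thus higher in the CORIN+ array of each pair, as the labels have it. Of 13 markers of floor plate and midbrain, Corin included, 9 were higher in the cultured CORIN+ array and 11 in the VM one, with median differences of 0.16 and 0.55 on the log2 scale.

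Notch signalling passes between touching cells. A ligand of the Delta or Jagged family on a cell activates a Notch receptor on its neighbour, the receptor is cut, and its intracellular part joins RBPJ and a Mastermind protein in the nucleus. Genes of the Hes and Hey families are then transcribed, and their products repress the proneural genes, which drive progenitors to become neurons and which themselves raise Delta ligands in the differentiating cell. In the developing brain Notch receptors and Hes genes mark dividing progenitors of the ventricular zone, whereas Delta ligands and proneural factors mark cells that are leaving the cycle. Notch receptors, ligands and Hey genes also act in blood vessels and mesenchyme.

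All values are log2 signals, on which a difference of 1 is 2-fold, and differences are CORIN+ minus CORIN-. Signals of different genes come from different probes and were not compared with each other. Since each population was measured once, differences carry no replicate check, error or p-value, and precision is limited by the count of arrays. The share of all genes past the same fold is given in its place. Over all genes the median difference was 0.0021 in the cultured pair and -0.040 in the VM pair. The scaled median absolute deviation was 0.157 and 0.177. The quartiles over all genes were -0.10 and 0.11 in the cultured pair and -0.16 and 0.085 in the VM pair. For counts of genes above or below 0 in a single pair, here and in the marker lists, no share of all genes was computed. Over all clusters the median signal lay between 7.97 and 8.03 in the 4 arrays. In a mixed population a lower signal can mean fewer cells of a type or less RNA per cell, and these cannot be told apart. Hes3, Neurog3 and Atoh1 lay below the median of all clusters in each of the 4 arrays, Notch4 in 3, Dll4 in 2, and Hey2 and Heyl in 1, a cultured one. No detection calls were used here, so whether these genes were above background is unknown.

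In the cultured cells, most Delta ligands and proneural genes had lower signals in the CORIN+ array, whereas Hey1 and Hes5 had higher ones. At least 2-fold higher was 1 member, Hey1, against 0.376% of all genes, and at least 2-fold lower were 2 members, Neurog1 and Neurod4, against 0.522%. At 1.5-fold, 2 members were higher (1.52% of all genes) and 6 were lower (2.32%). In the fetal VM the leading members were other genes. There Hey2, Notch2 and Heyl were at least 2-fold higher in CORIN+ cells (3 members, against 3.16% of all genes), and no member was at least 2-fold lower (0.456% of all genes). At 1.5-fold, 4 members were higher, Hey1 being the fourth (5.92% of all genes), and 2 were lower, Insm1 and Dtx1 (2.8%). Of the 35 genes, 12 reached 1.5-fold in at least 1 pair and 23 in neither. For this count over both pairs no share of all genes was computed.

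**Figure D1:**
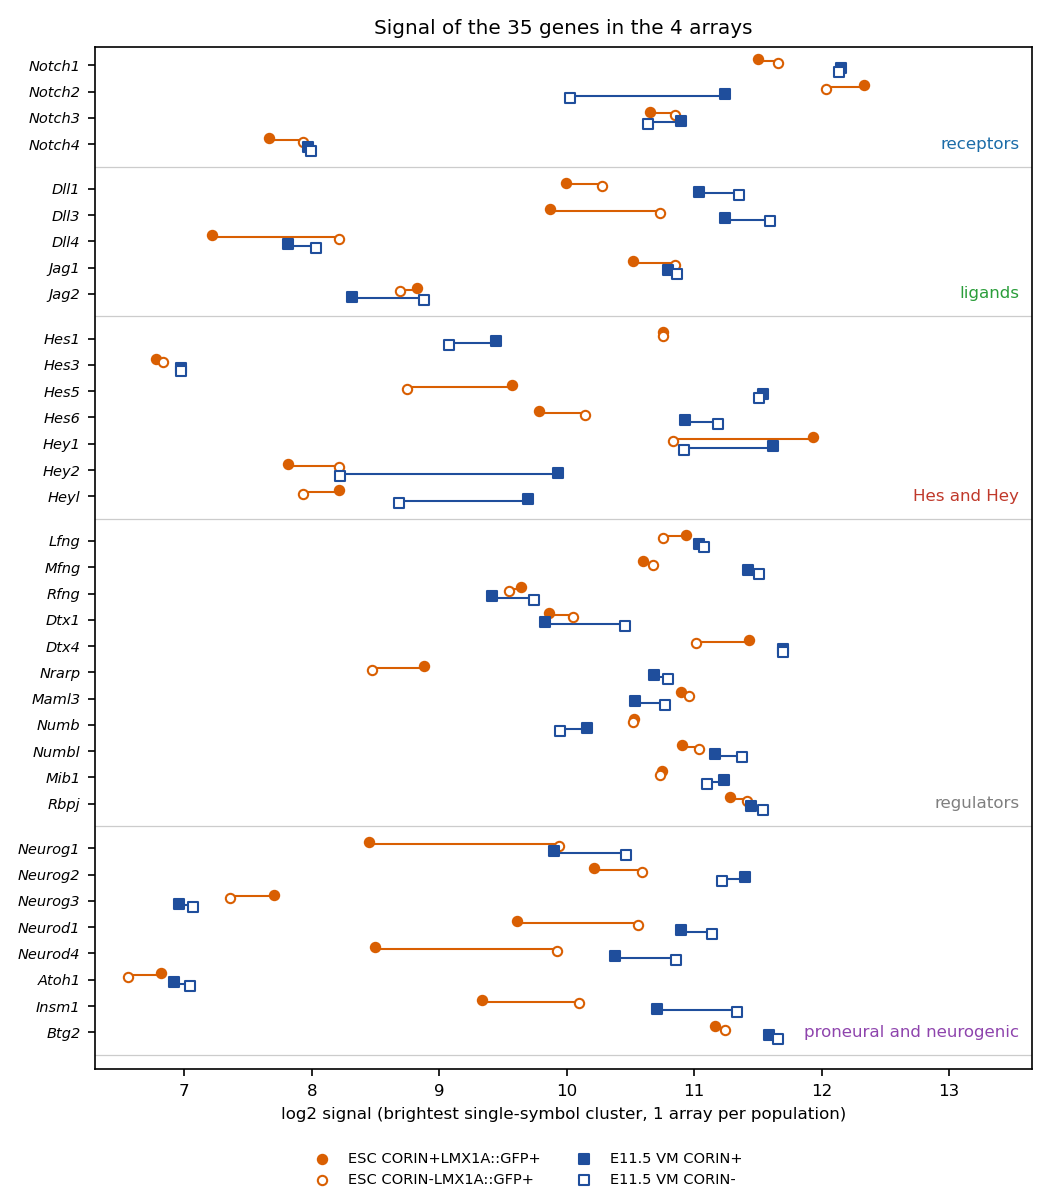
Log2 signal of the 35 genes (vertical axis, grouped by role) in the 4 arrays, 1 per population, where circles are ESC-derived cultured cells and squares E11.5 VM cells, filled for CORIN+ and open for CORIN-, and a line joins the arrays of a pair. The longest lines belong to Neurog1 and Neurod4 in the cultured pair and to Hey2 and Notch2 in the VM pair.

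Among the receptors, Notch2 differed most and Notch1 least in the VM. Notch2, a receptor of progenitors that is also used by mesenchymal and myeloid cells, had signals of 12.34 in cultured CORIN+ cells, 12.03 in cultured CORIN- cells, 11.24 in VM CORIN+ cells and 10.03 in VM CORIN- cells. It was 2.32-fold higher in VM CORIN+ cells and 1.23-fold higher in the cultured pair. Both cultured arrays lay above both VM arrays. Notch1, the main receptor of neural progenitors, had signals of 12.15 and 12.14 in the VM CORIN+ and CORIN- arrays, above both cultured arrays, and each pair lay close together. Its differences were -0.16 in the cultured pair and 0.015 in the VM pair. Notch3, which is found in progenitors and in the mural cells of vessels, had differences of -0.20 and 0.26. Notch4, mostly an endothelial receptor, had -0.26 and -0.027. Another 6 clusters on the array were assigned to Notch4 together with another gene and were not used. The 4 receptors had a median difference of -0.18 in the cultured pair and 0.14 in the VM pair.

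The ligands leaned towards the CORIN- cells. In the VM pair all 5 were lower on the CORIN+ side, with differences from -0.56 to -0.069 and a median of -0.31. The smallest of these, that of Jag1, lay within the quartiles of all genes. In the cultured pair 4 of the 5 were lower, with a median of -0.33. Lower in both pairs were 4 ligands, where 31.3% of all genes were. Dll3, a Delta family member of differentiating neural cells that acts inside the cell, had signals of 9.87 in cultured CORIN+ cells, 10.74 in cultured CORIN- cells, 11.24 in VM CORIN+ cells and 11.60 in VM CORIN- cells. It was 1.82-fold lower in the cultured CORIN+ array and at a difference of -0.36 in the VM. Dll4, best known from endothelium and from some neural progenitors, had signals of 7.22, 8.22, 7.82 and 8.03. Its cultured difference of -0.996 stood just short of 2-fold, and its VM difference was -0.22. Only the cultured CORIN- and VM CORIN- arrays placed it above the median of all clusters. Dll1, the Delta ligand of newborn neurons, had nearly the same difference in both pairs, at -0.28 and -0.31. Jag1, a Jagged ligand, had -0.33 and -0.069, and Jag2 had 0.14 and -0.56, the latter just under 1.5-fold.

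The Hes and Hey genes included the members with the highest differences of both pairs, and different genes led in each. Hey1, a repressor that Notch and BMP signals raise, had signals of 11.93 in cultured CORIN+ cells, 10.83 in cultured CORIN- cells, 11.62 in VM CORIN+ cells and 10.92 in VM CORIN- cells. Both CORIN+ arrays lay above both CORIN- arrays, and Hey1 alone among the members reached 1.5-fold in the same upward direction in both pairs, at 2.14-fold and 1.63-fold. The share of all genes at least 1.5-fold higher in both pairs was not computed. Hes5, the direct Notch target that reports signalling in neural progenitors, had signals of 9.57, 8.74, 11.54 and 11.51. It was 1.77-fold higher in the cultured CORIN+ array, whereas the VM arrays differed by 0.035 and lay well above both cultured ones. Hey2, a target of vessels and of parts of the nervous system, had signals of 7.82, 8.21, 9.93 and 8.22. The VM CORIN+ array stood apart from the other three, with a difference of 1.72 (3.28-fold) against -0.40 in the cultured pair. Heyl, a relative expressed in mural cells and in neural progenitors, had signals of 8.21, 7.93, 9.70 and 8.68, and was 2.02-fold higher in VM CORIN+ cells, just past the threshold, and fell short of it, at a difference of 0.97 and 0.96, after quantile normalization or with 32 added to the linear signal.

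Hes1, which keeps progenitors undifferentiated and also responds to signals other than Notch, had signals of 10.75 and 10.76 in the cultured arrays and of 9.44 and 9.08 in VM CORIN+ and CORIN- cells. It thus did not separate the cultured populations and was at a difference of 0.36 in the VM. Hes6, an atypical family member that promotes neurogenesis and counters Hes1, leaned the other way from Hey1, with -0.36 and -0.26. Hes3 had differences of -0.055 and 0.0028 at signals from 6.78 to 6.97. The 7 genes had a median difference of -0.0046 in the cultured pair, where 3 were above 0. In the VM pair the median was 0.36 and 6 were above 0, of which Hes3 and Hes5 lay within the quartiles of all genes.

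The promoters of Hes5 and Hey2 are shown because these targets were higher on the CORIN+ side in different pairs and both hold the core of the RBPJ site. RefSeq promoters of GRCm38.p6, from 250 bases before to 50 bases after the start, were available for 27 of the 35 genes, as 33 entries. Hes1, Hes3, Hey1, Heyl, Insm1, Mfng, Dtx4 and Mib1 had no entry and were not searched for either motif. The letters GTGGGAA, searched on both strands, stood in 6.38% of all 32851 promoters, in 3 of the 33 member promoters (Hes5, Hey2 and Lfng) and at 2 or more places in 0.256% of all promoters, among them Hes5 and Hey2. In the sequences below, written 5′ to 3′ on the strand of the gene, the capitals mark these matches on either strand. The Hes5 sequence covers chr4:154960673-154960922 on the + strand, and the Hey2 sequence chr10:30842781-30843033 on the - strand. The matches began at -226 and -83 in Hes5 and at -207 and -4 in Hey2, counted from the first transcribed base as 0.
Hes5: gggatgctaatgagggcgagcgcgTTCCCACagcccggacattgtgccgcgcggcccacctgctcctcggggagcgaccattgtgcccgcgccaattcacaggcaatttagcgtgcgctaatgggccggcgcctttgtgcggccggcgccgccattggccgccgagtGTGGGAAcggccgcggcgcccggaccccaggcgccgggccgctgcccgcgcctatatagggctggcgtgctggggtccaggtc
Hey2: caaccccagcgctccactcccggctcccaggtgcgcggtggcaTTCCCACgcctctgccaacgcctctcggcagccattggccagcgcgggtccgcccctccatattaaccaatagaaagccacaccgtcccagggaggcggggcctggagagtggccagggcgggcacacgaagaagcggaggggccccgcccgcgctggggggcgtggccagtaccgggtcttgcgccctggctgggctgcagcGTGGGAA
A match of letters is a description of the window and was not tested for binding of RBPJ.

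The regulators had a median difference of 0.0099 in the cultured pair and -0.092 in the VM pair. Of the 11, 10 were under 1.5-fold in both. The exception was Dtx1, an E3 ubiquitin ligase of the Deltex family that Notch raises and that modulates the receptor. Its signals were 9.86 in cultured CORIN+ cells, 10.05 in cultured CORIN- cells, 9.83 in VM CORIN+ cells and 10.46 in VM CORIN- cells, so that it was 1.55-fold lower in VM CORIN+ cells. Nrarp, a feedback inhibitor that Notch raises, followed the pattern of Hes5. Its signals were 8.88, 8.47, 10.69 and 10.80, with differences of 0.40 and -0.11. Dtx4, another Deltex ligase, had 0.42 and -0.0001. The 3 Fringe glycosyltransferases, which set which ligand a receptor answers to, lay from -0.078 (Mfng) to 0.18 (Lfng) in the cultured pair and from -0.33 (Rfng) to -0.040 (Lfng) in the VM pair. The core of the nuclear complex and the sorting machinery were under 1.5-fold in both pairs. Rbpj, the DNA-binding partner of the receptor, had -0.13 and -0.092, and its second cluster, at signals from 6.02 to 6.32, had -0.30 and -0.11. Maml3, a Mastermind coactivator, had -0.058 and -0.24. Mib1, the ligase that activates ligands, had 0.010 and 0.13. Numb and Numbl, endocytic adaptors that inhibit Notch, had 0.010 and -0.13 in the cultured pair and 0.21 and -0.21 in the VM pair.

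Of the proneural and neurogenic genes, 4 were at least 1.5-fold lower in the cultured CORIN+ array and 1 of them, Insm1, also in the VM, where 2.32% and 2.8% of all genes were. No share of all genes at least 1.5-fold lower in both pairs was computed. Neurog1, a proneural factor, had signals of 8.45 in cultured CORIN+ cells, 9.94 in cultured CORIN- cells, 9.90 in VM CORIN+ cells and 10.46 in VM CORIN- cells. It was 2.81-fold lower in the cultured CORIN+ array, the largest difference of any member in that pair, and at 1.48-fold lower in the VM. Neurod4, a factor that acts downstream of the proneural genes, had signals of 8.49, 9.92, 10.38 and 10.86, with 2.69-fold lower and 1.39-fold lower. In each of these genes the cultured CORIN+ array stood apart below the other three.
Neurod1, which acts in differentiating neurons, had signals of 9.61, 10.56, 10.89 and 11.14 and was 1.94-fold lower in the cultured pair and 1.19-fold lower in the VM. Insm1, a zinc finger factor that drives progenitors out of the ventricular zone, had signals of 9.34, 10.09, 10.71 and 11.34. Its differences were alike in size, at 1.69-fold and 1.55-fold lower. Neurog2, the proneural factor on which VM dopaminergic neurogenesis depends most, was lower in CORIN+ cells in culture, as Neurog1 was, but not in the VM. Its signals were 10.21, 10.59, 11.40 and 11.22, with differences of -0.38 and 0.18. Btg2, an antiproliferative gene of neurogenic divisions, had -0.076 and -0.069. Neurog3 and Atoh1, factors of the pancreas and hypothalamus and of the cerebellum and hair cells, had 0.34 and 0.26 in the cultured pair and -0.11 and -0.12 in the VM pair. The 8 genes had a median difference of -0.57 in the cultured pair and -0.19 in the VM pair.

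The Neurog1 promoter is shown as that of the member with the lowest cultured difference, with the single match to CACGNG, a class of site bound by Hes and Hey repressors, in capitals. It covers chr13:56252181-56252430 on the - strand in GRCm38.p6, and the match begins at -119 from the first transcribed base.
Neurog1: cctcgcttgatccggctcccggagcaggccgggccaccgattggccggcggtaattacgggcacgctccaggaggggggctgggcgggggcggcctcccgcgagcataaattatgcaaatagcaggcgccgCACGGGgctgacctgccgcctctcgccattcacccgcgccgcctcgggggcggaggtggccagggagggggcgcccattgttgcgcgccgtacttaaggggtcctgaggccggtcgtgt
Searched on both strands, CACGNG stood in 18 of the 33 member promoters, of 17 genes, and in 27.5% of all promoters. CACGTG, a form of it, reads the same on both strands and counts on each, and in Lfng it overlaps the RBPJ letters. The member promoters held a median of 22 CG dinucleotides against 7 over all promoters, and their median GC content was 64.7% against 52.7%. The part of this base composition in the share of matches was not tested.

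**Figure D2:**
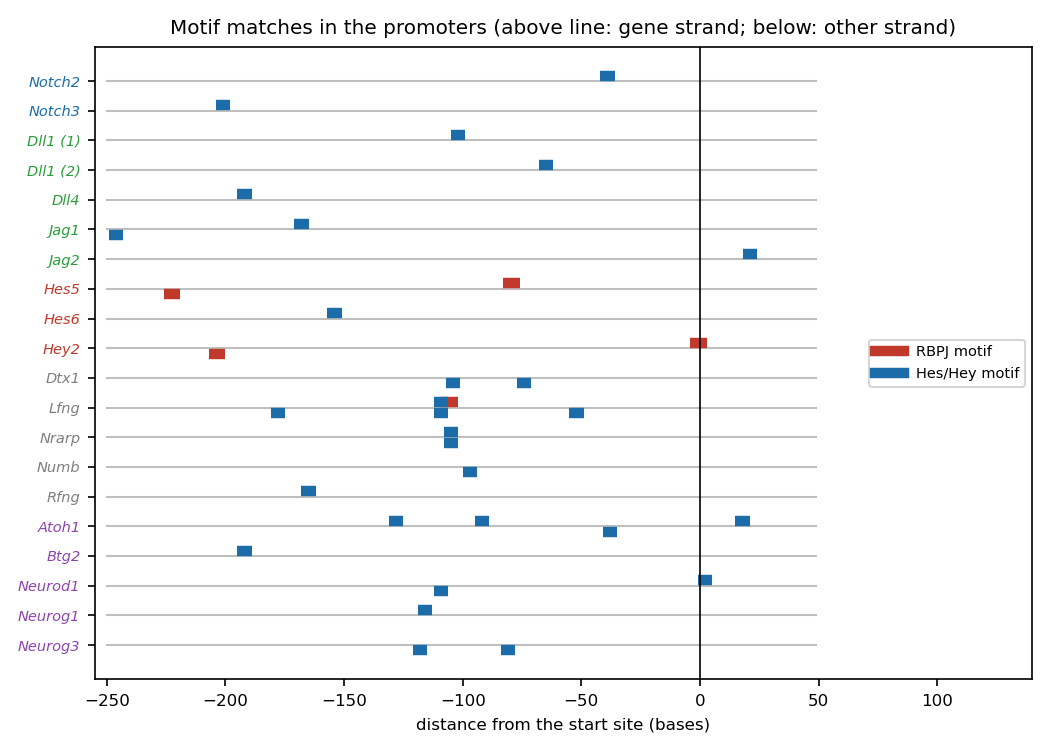
Matches to GTGGGAA (red, RBPJ) and CACGNG (blue, Hes/Hey) in the member promoters that hold at least 1 of them, by distance from the start site in bases (horizontal axis). Bars above a line are on the strand of the gene and bars below on the other strand, and Hes5 and Hey2 each hold 2 red bars.

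Set side by side, 16 of the 35 genes were lower on the CORIN+ side in both pairs by any amount, where 31.3% of all genes were, and 6 were higher in both, where 22.2% of all genes were. The 16 comprised 1 receptor, 4 ligands, 1 Hes gene, 5 regulators and 5 proneural or neurogenic genes. The pairs share no array. Hey2 alone among the members was past 1.5-fold in a pair and on the other side of 0 in the other, except that after quantile normalization Jag2 was so too, at -0.62 in the VM and 0.12 in culture. How many of all genes have such a pattern was not computed.

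**Figure D3:**
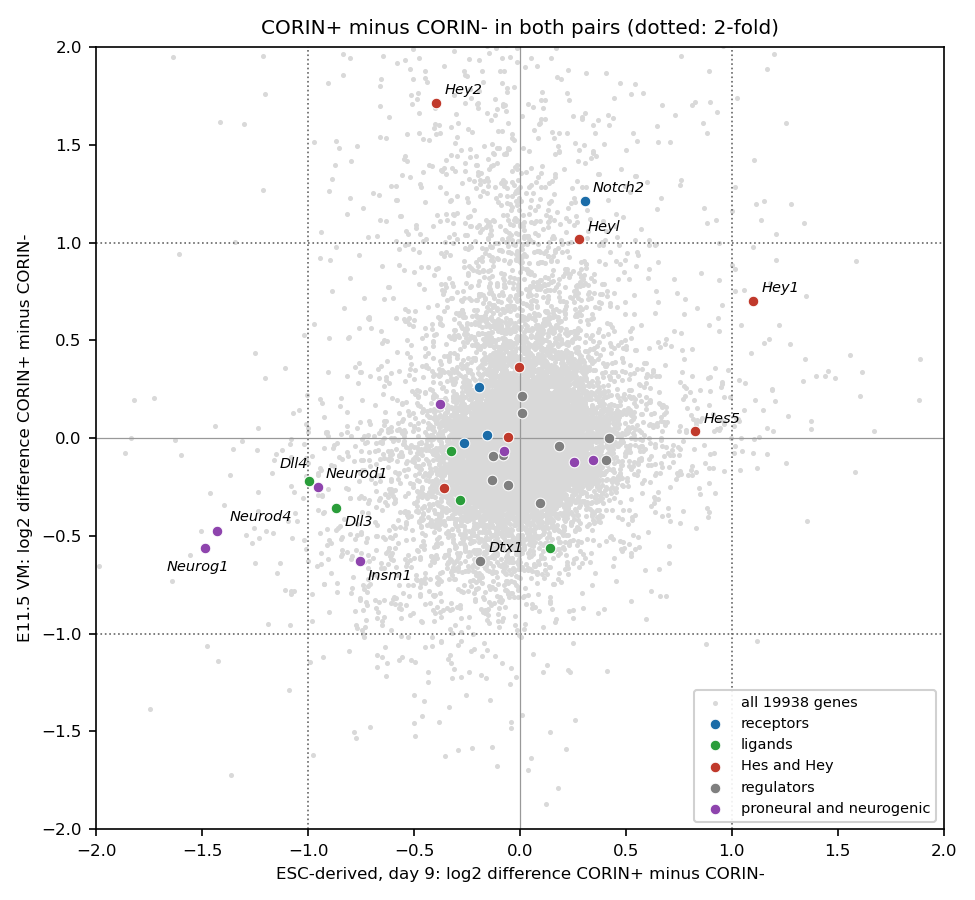
Log2 difference CORIN+ minus CORIN- in the cultured pair (horizontal axis) and in the VM pair (vertical axis) for the 35 genes, coloured by role, and for all 19938 genes in grey, of which 155 lie outside the axes; dotted lines mark 2-fold and members at least 1.5-fold in either pair are named. Most proneural genes and the Delta ligands lie to the left, Hey1 and Hes5 to the right, and Hey2, Notch2 and Heyl at the top.

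The source of the cells separated some members more than the sort did. Both VM arrays were at least 2-fold above both cultured arrays for 2 members, Hes5 and Nrarp, against 1.37% of all genes. The lower VM array exceeded the higher cultured array by 3.82-fold for Hes5 and by 3.50-fold for Nrarp. The reverse held for 1 member, Hes1, at 2.48-fold, against 1.44% of all genes. Hes1 and Hes5, both Notch targets of progenitors, thus had opposite orders in the fetal and the cultured cells. Notch2 had its higher signals in culture by at least 1.73-fold, under the threshold. Dll1, Hes6, Mfng, Insm1 and Neurog2 had theirs in the VM, by 1.70-fold, 1.73-fold, 1.68-fold, 1.53-fold and 1.55-fold. The share of all genes that reach 1.5-fold between the sources was not computed, so these members have nothing to be weighed against. Over the roles, the VM mean minus the cultured mean had a median of 1.06 for the Hes and Hey genes and 0.92 for the proneural genes. It was 0.21 for the ligands, 0.21 for the regulators, 0.10 for the receptors and 0.0021 over all genes. The Hes and Hey median was the value of Hey2, which was high in the VM CORIN+ array alone. Hes5, Hes6 and Heyl lay above it, Hes3 was at 0.17, and Hes1 (-1.49) and Hey1 (-0.11) went the other way. Culture, age, strain and the LMX1A::GFP gate differ together between the sources, and their parts cannot be told apart.

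Of 73 other genes of the pathway and neurogenesis, neurogenic factors were mostly lower in CORIN+ cells and receptor-processing enzymes mostly higher by under 1.5-fold. In the cultured pair none was at least 1.5-fold higher and 13 were at least 1.5-fold lower, beside 1.52% and 2.32% of all genes, and in the VM pair 3 were higher and 8 lower, beside 5.92% and 2.8%. The 24 neurogenic factors had medians of -0.37 and -0.20, and 18 of them were below 0 in both pairs. Olig2, a progenitor factor of the ventral neural tube, was 2.79-fold lower in the cultured pair and 2.09-fold lower in the VM. Srrm4, a splicing factor of neurons, was 2.45-fold and 1.41-fold lower, and Eomes, a factor of intermediate progenitors and of early embryos, had a difference of -1.003 in the cultured pair and of 0.053 in the VM. Dlk1, a Delta-like protein that lacks the receptor-binding domain of the Delta ligands, was 2.35-fold and 1.43-fold lower. Helt, a Hes-related repressor that the GABAergic neurons of the midbrain need, was 2.71-fold lower in VM CORIN+ cells. Dtx3l, a Deltex relative of immune responses, was 2.10-fold higher there, though below the median of all clusters in both VM arrays. The 11 genes of receptor processing, among them the protease Adam10 and the γ-secretase subunits Ncstn and Psenen, were all under 1.5-fold in both pairs. Their medians were 0.12 and 0.13. In each pair 10 were above 0, and 9 were above 0 in both, where 22.2% of all genes were. Of those above 0 in culture, Psen2, Aph1a, Aph1b and Aph1c lay within the quartiles of all genes. In the VM, Ncstn, Psenen and Poglut1 did. Below 0 were Poglut1 in culture (-0.078) and Aph1b in the VM (-0.33).

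Markers of other cells differed beside these genes. All 12 neuron markers were lower in CORIN+ cells in both pairs, with medians of -0.62 and -0.52, beside the lower ligands and proneural genes. Their median signal was 9.84 in cultured CORIN+, 10.53 in cultured CORIN-, 11.14 in VM CORIN+ and 11.81 in VM CORIN- cells. Of 8 radial glia markers, 6 were higher in the cultured CORIN+ array and 5 in the VM one, with medians of 0.32 and 0.023. Pax6, a progenitor transcription factor, had the largest difference of the list in the VM, at -1.23, and -0.16 in culture. Slc1a3, a glial glutamate transporter, was at 0.999 in culture and 1.16 in the VM, and Fabp7, a fatty acid binding protein, at 0.71 and -0.089. The cell division markers had medians of -0.066 and 0.28.
Beside the higher Hey2, Notch2 and Heyl, VM CORIN+ cells had higher signals for all 11 macrophage markers (median difference 3.67), for 13 of 14 mural and mesenchyme markers (1.80), for 9 of 13 endothelium markers (0.22) and for 5 of 6 erythroid markers (1.32). The median signals of the macrophage, mesenchyme and endothelium markers were 10.37, 10.72 and 7.71 in VM CORIN+ cells and 6.70, 8.59 and 7.26 in VM CORIN- cells. Those of the endothelium markers were below the median of all clusters, and 7 of these 13 markers were not above it in any of the 4 arrays. Cdh5, the junction cadherin of endothelium, had a difference of 2.45 in the VM. Lum, a matrix proteoglycan of mesenchyme, had 2.75, and Ly86, a myeloid protein, had 5.58. In the cultured pair the mesenchyme and endothelium markers ran the other way (medians -0.73 and -0.38). There Hey2 was lower in CORIN+ cells (-0.40), whereas Notch2 and Heyl were higher (0.30 and 0.28). The 8 pluripotency markers were all lower in the CORIN+ array (median -1.85), with Dppa5a at -3.42. The macrophage markers were dim in both cultured arrays, at median signals of 6.36 and 6.49. The part of any of these cells in the values of the Notch and proneural genes was not tested.

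**Figure D4:**
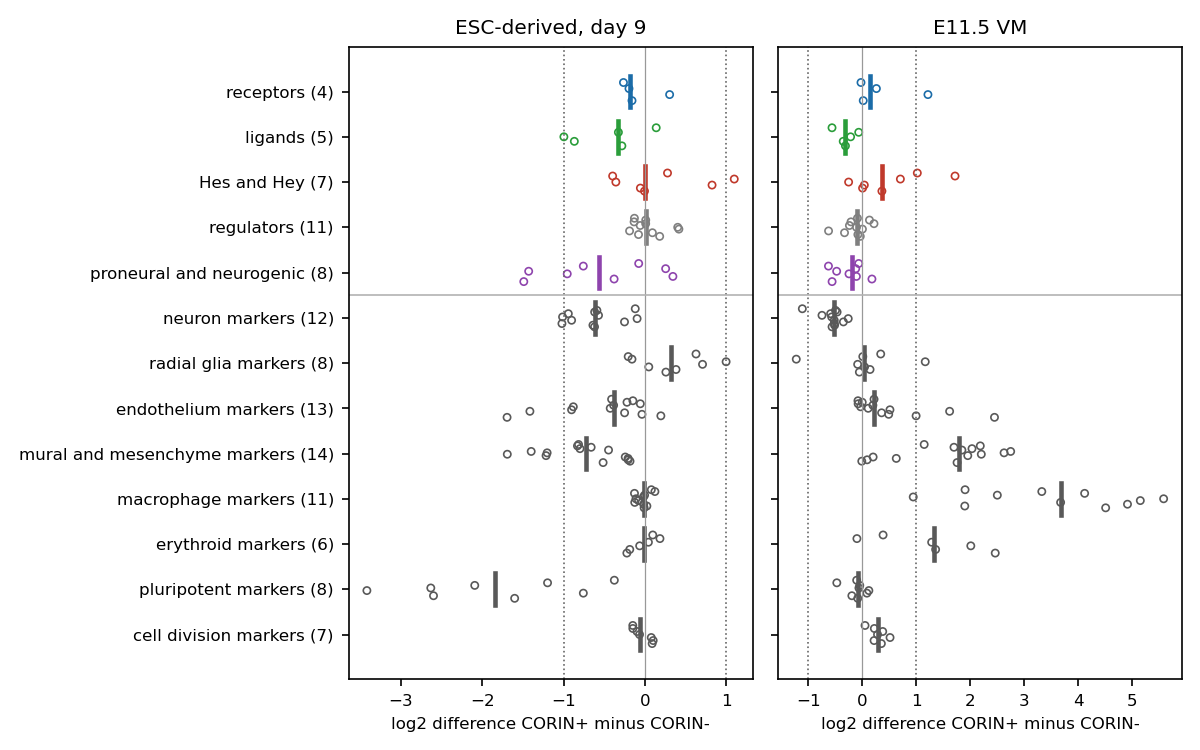
Log2 difference CORIN+ minus CORIN- (horizontal axes) of the genes of each role and of each marker list in the cultured pair (left) and the VM pair (right), with the number of genes in parentheses; circles are genes, thick bars medians and dotted lines 2-fold. Neuron markers lie left of 0 in both panels with most ligands and proneural genes, and macrophage and mesenchyme markers lie to the right in the VM panel.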

How the data were processed

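Each of the 4 sorted populations, grouped by the sample labels, was measured on 1 array. The authors extracted total RNA from at least 100000 sorted cells, hybridized it to Affymetrix whole-transcript arrays and used GeneSpring, and the deposited values are log2 signals of 28856 transcript clusters, from 4.38 to 14.5. For their summarization, normalization, filters and build, nothing was given in the sources used here. How far these steps shaped the differences is therefore unknown.

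Platform annotation paired 21789 clusters with 1 gene symbol, 1621 with several and 5446 with none, and 21698 symbols were brought up to date by gene ID. Each of 19938 genes was represented by its cluster with the highest mean signal over the arrays. No difference was tested, for want of replicates. Genes past 1.5-fold and 2-fold were counted among the members and all genes. A 2-fold cut was also tried on simulated differences, separately from this counting, and a 1.5-fold cut was not tried. The members and lists were chosen with earlier results of these data known. Members past 1.5-fold in either pair have all 4 signals given, other pathway genes are named past 2-fold, and of a marker list up to 3 genes with the largest difference. Signals of Notch1, Hes1, Nrarp and Neurog2, the processing enzymes and the comparison of fetal with cultured cells were added after the values were seen.

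Alternatives were quantile normalization, centring, filters at the 20th and 50th percentile of signal, 32 added to the linear signal, the mean over clusters of a gene, and the brightest cluster of the pair. Motifs were searched in RefSeq promoters of GRCm38.p6. Python 3.11.15, numpy 2.4.6, pandas 2.3.3 and matplotlib 3.10.9 were used.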

Additional observations from a re-analysis of the deposited data

Results flagged for a closer look

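The difference of Hey2 between CORIN+ and CORIN- cells ran in opposite directions in the 2 pairs. It was 1.72 in the VM and -0.40 in the cultured cells, so that the pairs were 2.11 log2 units apart. This difference between the pairs was not tested, since each population has 1 array. In the cultured pair the signals of Hey2, 7.82 and 8.21, lay close to the median of all clusters.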

How the results depend on the processing

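Each count of members past 1.5-fold or 2-fold stayed within 1.5 times its value in 66 recomputed counts, those of the fetal with the cultured cells included. In the VM, 2 members in place of 3 were at least 2-fold higher after quantile normalization or with 32 added to the linear signal, Heyl being lost, and 3 in place of 2 were at least 1.5-fold lower after quantile normalization, Jag2 being added. The role medians of the proneural genes and of the Hes and Hey genes depended on the filter at the 50th percentile of signal in at least 1 array, which left out Neurog3, Atoh1 and Hes3 in both pairs and Notch4 in culture. With it the proneural medians were -0.86 in culture and -0.36 in the VM, and the Hes and Hey medians 0.14 and 0.53, so that the cultured one turned from just below 0 to above it. The 483 recomputed differences of single members moved by less than the scaled median absolute deviation of all genes. Many of these could not move. The filters leave the difference of a kept gene unchanged, and Rbpj alone among the members had a second cluster of its own. The mean over clusters and the choice of the brightest one could thus change Rbpj alone. The filter at the 20th percentile dropped no member, so no count or median could move with it. These alternatives change the processing and not the sample. Signal over background was not used here, so how it limits the folds of dim genes is unknown. No paired analysis was possible because each population has 1 array.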
